A study of Mus musculus and Homo sapiens with 40 samples.

Results

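H3K27ac regions that were called in untreated p42- and p30-expressing HPC-7 cells and in neither line after LPS were analysed. They were selected on the H3K27ac peak calls themselves. The 4 H3K27ac lists (both lines, untreated and with LPS) were merged wherever peaks shared at least 1 bp, and a region was kept when it held a peak of both untreated lists and no peak of either LPS list. This gave 7229 regions of 183190 in all, or 9.12% of the 79246 regions present in both untreated lists. Of the rest of these 79246 regions, 56651 had a peak in both LPS lists (kept in both), 12159 were absent only from the p42 LPS list (lost in p42 only) and 3207 only from the p30 LPS list (lost in p30 only). Because the calls chose the regions, their loss is a description and not a finding.

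HPC-7 cells, mouse hematopoietic progenitors grown as a line, have little CEBPA of their own. They carried a retroviral pMSCV-IRES-GFP vector with either the full-length CEBPA isoform p42 or the shorter, AML-associated isoform p30, both as fusions with ERT2, an altered part of the estrogen receptor, and GFP-positive cells were sorted. According to the methods, 4-hydroxytamoxifen was given for 24 h before experiments to bring the fusion protein into the nucleus, in both lines and all conditions; the labels do not name it. H3K27ac was measured in 3 samples per group, untreated or with LPS at 100 ng/mL for 2 h. Untreated cells were also profiled for H3K4me1 (2 samples per line by the labels) and, with 1 sample each, for the fusion protein with an antibody against CEBPA and with an antibody against the ER part. Each line was 1 transduced population per isoform, so isoform and line cannot be told apart. The replicates of a histone mark were called together as 1 list, so the spread between replicates is unknown and conditions were not tested against each other. Intervals are 95% and cover counting error over regions only. The peak lists do not give read depth. A region that is absent from a list was under the threshold of the caller there, which is not the same as no H3K27ac.

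H3K27ac is an acetylated histone mark of active promoters and enhancers. H3K4me1 marks enhancers, active or poised. LPS is a bacterial cell wall component that activates Toll-like receptor 4 and, through it, NF-kB and AP-1 transcription factors, which then open and acetylate new enhancers, while acetylation at other enhancers can fall. CEBPA is a bZIP factor of myeloid progenitors that binds enhancers together with PU.1 and RUNX1, the ETS and Runt factors of this lineage.

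Sequences around the strongest untreated H3K27ac summit are given for 6 distal regions (outside promoters), the 3 best-ranked of either kind of CEBPA occupancy. With them the letters behind the motif counts below can be read. Single regions named as best here and below were ordered by the worse of their rank percents by q-value in the untreated lists. They are 200 bases of GRCm39 (mm39), plus strand, with matches to the 15 motifs of the panel in capitals. None of these windows overlapped an annotated exon. The first 3 had a site in all 4 lists of the fusion protein (anti-CEBPA and anti-ER in both lines). They lie 5′ of Dusp7, a phosphatase of ERK kinases (chr9:106242285-106242484), in an intron of Cnot6l, a deadenylase subunit (chr5:96239027-96239226), and in an intron of Exoc6b, where the nearest start is that of Cyp26b1, a retinoic acid hydroxylase (chr6:84634007-84634206).
Dusp7: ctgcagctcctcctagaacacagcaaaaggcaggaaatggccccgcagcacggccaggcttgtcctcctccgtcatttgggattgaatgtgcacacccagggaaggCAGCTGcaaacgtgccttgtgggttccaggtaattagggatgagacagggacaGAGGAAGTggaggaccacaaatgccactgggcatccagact
Cnot6l: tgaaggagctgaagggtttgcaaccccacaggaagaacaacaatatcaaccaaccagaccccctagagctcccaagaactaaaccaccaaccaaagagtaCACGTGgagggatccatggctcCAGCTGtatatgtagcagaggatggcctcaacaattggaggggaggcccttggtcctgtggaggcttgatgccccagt
Cyp26b1: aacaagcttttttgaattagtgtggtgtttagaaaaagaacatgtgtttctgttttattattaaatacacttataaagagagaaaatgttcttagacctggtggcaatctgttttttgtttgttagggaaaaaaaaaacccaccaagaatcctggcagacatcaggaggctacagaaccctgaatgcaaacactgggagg
In the Dusp7 window the capitals mark the E-box CAGCTG and the PU.1 motif GAGGAAGT, in the Cnot6l window the E-boxes CACGTG and CAGCTG, and the Cyp26b1 window held no match. No window held a word of the CEBP motif. All 3 regions had a CEBPA site within 500 bp of the summit in each list, which may lie outside these 200 bases.

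The next 3 had no site in any of these lists. They lie in introns of Cmas, the enzyme that activates sialic acid (chr6:142716590-142716789), Kpna3, an importin alpha (chr14:61662218-61662417), and Dpy19l1, a C-mannosyltransferase (chr9:24362565-24362764).
Cmas: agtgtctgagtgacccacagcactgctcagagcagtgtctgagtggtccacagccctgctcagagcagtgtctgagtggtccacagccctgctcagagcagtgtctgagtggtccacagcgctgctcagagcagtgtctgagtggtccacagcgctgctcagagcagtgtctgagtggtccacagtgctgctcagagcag
Kpna3: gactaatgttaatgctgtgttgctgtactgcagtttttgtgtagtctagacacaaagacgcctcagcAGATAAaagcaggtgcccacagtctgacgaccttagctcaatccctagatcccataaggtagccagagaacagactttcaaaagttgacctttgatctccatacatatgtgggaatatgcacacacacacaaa
Dpy19l1: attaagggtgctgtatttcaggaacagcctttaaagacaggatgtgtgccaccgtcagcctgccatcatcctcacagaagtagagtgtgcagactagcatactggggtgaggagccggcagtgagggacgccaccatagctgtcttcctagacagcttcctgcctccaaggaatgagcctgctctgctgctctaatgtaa
The capitals in the Kpna3 window mark the GATA motif AGATAA, and the other windows held no match. The Cmas window was a tandem repeat, in which 97.0% of bases equalled the base 33 bp further on. By this measure (at least 80% identity at a shift of 5 to 100 bp, chosen after the sequence was seen) 21 of 7229 lost regions had a tandem repeat at the summit, or 0.290% (0.190 to 0.444), against 0.282% of regions kept in both at the same strength.

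The lost regions were weak and narrow H3K27ac regions in untreated cells. Within each untreated list, peaks were ranked by q-value, and a region's strength was the mean of its 2 rank percents (0% is the best peak). The median was 72.4% for the lost regions (25th to 75th percentile 62.6 to 81.4), 24.9% for regions kept in both, 61.6% for those lost in p42 only and 63.1% for those lost in p30 only. The median fold enrichment over the local background, as given by the authors' peak caller, was 2.80 in p42- and 2.76 in p30-expressing cells, and that of regions kept in both was 5.17 and 4.99. The median −log10 q was 3.50 in p42 and 3.58 in p30. The median width was 411 bp, against 1464 bp for regions kept in both. None of the lost regions was among the best 10% of peaks of either untreated list, and 2 were within the best 20% in p42 and 5 in p30.

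The share of regions lost in both lines rose as strength fell. Over 10 equal classes of strength, it was 0 of 7925 in each of the 2 strongest, 3 of 7924 in the next, 3.48% in class 6, 14.7% in class 8 and 38.2% in the weakest. The share kept in both fell from 100% to 20.7% over the same classes. The rule asks for no LPS peak, and weak regions are close to the threshold of the caller, so strength is part of the selection. In the comparisons below, equal strength means weighting over classes of strength, and within a class strength can still differ. Since strength is a mean over both lines, the rank in a single line can differ as well, above all for regions lost in 1 line. Width was not held equal (median 411 bp in the lost regions and 1464 bp in regions kept in both). A wider region has more sequence that an LPS peak can overlap. How far width bears on the differences below was not tested.

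**Figure D1:**
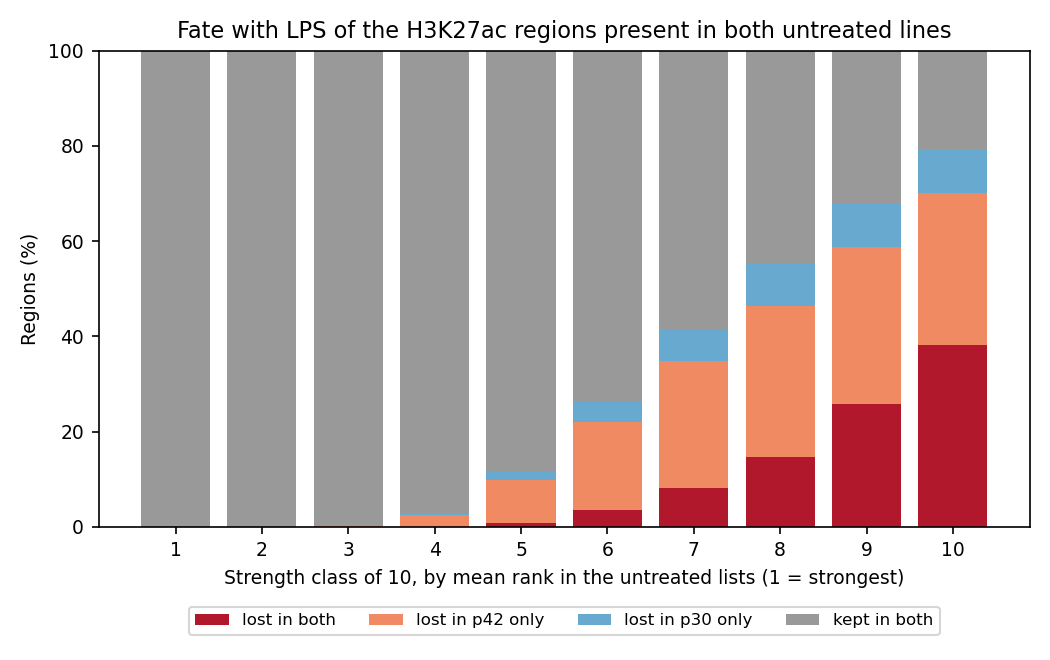
Percent of the 79246 H3K27ac regions present in both untreated lists that were lost in both lines, lost in 1 line or kept in both with LPS (stacked bars), over 10 classes of the mean rank in the untreated lists (x axis, 1 is the strongest). Losses in both lines reached 38.2% in the weakest class, and the strongest 2 classes held none.

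The rule joins losses of both lines. Of the 109053 regions of the untreated p42 list, 37.9% had no LPS peak in p42, and of the 120140 of the untreated p30 list, 29.3% had none in p30. Among regions present in both untreated lists, 37.3% of those lost in p42 were also lost in p30, against 5.36% of those kept in p42. At the strength of the lost regions, the shares were 43.3% and 23.2%. These shares use the calls of the rule and are a description, and when only regions with no LPS peak within 1000 bp count as lost in both, their difference of 20.1 points is 1.80 by construction. In the weakest of 10 classes, 54.4% of the 5564 regions lost in p42 were lost in p30, and 30.4% of the 2361 kept in p42. The 4 lists hold different numbers of peaks (107141 in p42 with LPS, 129369 untreated; 142419 and 139210 in p30), and losses in p42 outnumbered those in p30. How much of this came from depth was not tested.

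Most of the lost regions lay near an LPS peak, which is a description only. The other classes hold an LPS peak by definition and cannot be set beside them. How near other places in the genome lie to an LPS peak was not measured. The gap to the nearest LPS peak of either line had a median of 728 bp (25th to 75th percentile 323 to 1859), and 59.5% were within 1000 bp and 97.1% within 10000 bp of one. The p30 LPS peaks were nearer (median 949 bp) than the p42 LPS peaks (1564 bp), in the order of the number of peaks in these lists. For 210 regions the nearest LPS peak was over 10000 bp away, and for 21 over 50000 bp.

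**Figure D2:**
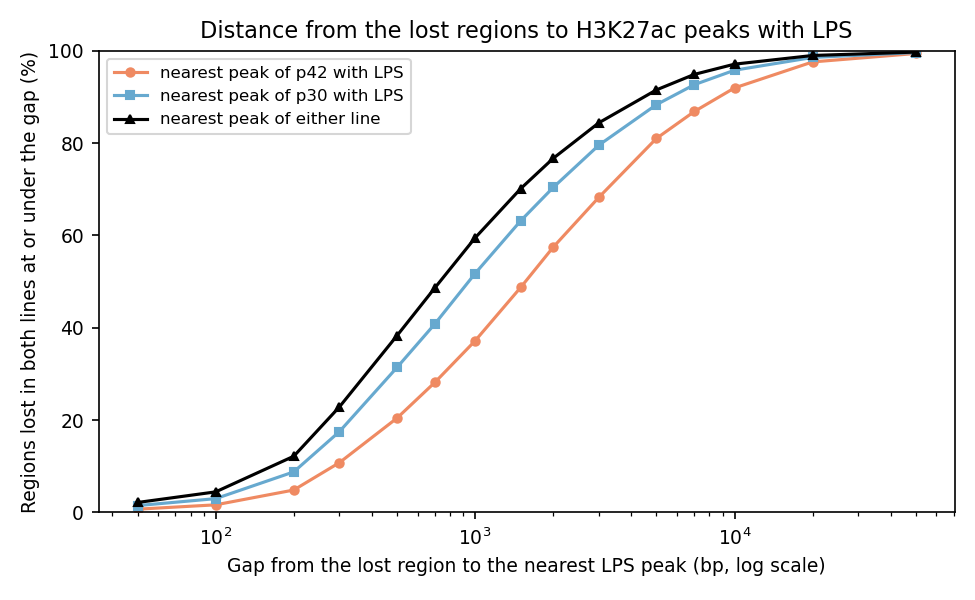
Cumulative percent of the 7229 lost regions (y axis) by the gap in bp, on a log scale, to the nearest H3K27ac peak with LPS (x axis) in p42-expressing cells, in p30-expressing cells or in either. At 1000 bp the curves stand at 37.2%, 51.7% and 59.5%.

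The limits of the rule show in single regions. In 5 lost regions an LPS peak began or ended on the adjacent base. The first 3 in genome order, each beside a p30 LPS peak, lay in introns of Tbl1xr1, a corepressor subunit (chr3:22137627-22137832), and of Ankfy1, an endosomal protein (chr11:72640177-72641327), and near Pgbd5 (chr8:125074962-125075220). The 3 regions kept out by the least shared sequence overlapped LPS peaks by 1, 2 and 2 bp, at Tmem104 (chr11:115096069-115096829), Elk4 (chr1:131956881-131957885) and Prdx6 (chr1:161073188-161074163). Within 10 bp of the limit were 43 lost regions and 28 other regions. At the other extreme, the lost region nearest to Cdh8 (chr8:98743453-98743676) was 2109975 bp from the next LPS peak, with fold enrichments of 2.66 in p42 and 2.36 in p30.

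The neighbours of the lost regions are described by the same H3K27ac calls as the rule, so no difference is drawn from them. Values for the other classes below are weighted over 20 classes of strength to the strength of the lost regions. A region kept in both lay within 1000 bp of 30.6% of the lost regions. The nearest other kept region was as near to 47.0% of the regions kept in both, to 39.4% of those lost in p42 only and 38.3% of those lost in p30 only. The nearest other region present in both untreated lists was itself lost in both for 16.7% of the lost regions and for 8.92% of the regions kept in both. Neighbouring regions share local sequence and background.

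Most of the lost regions lay inside genes, away from their starts, as did most regions of the other classes at equal strength. Of 7229, 4956 (68.6%) had their summit in an intron, 1321 (18.3%) in an exon, 616 (8.52%, 7.90 to 9.19) in a promoter (1000 bp upstream to 100 bp downstream of any annotated start) and 336 (4.65%) between genes. Over all 79246 regions these shares were 58.0%, 14.6%, 18.3% and 9.11%. At equal strength 65.0% of the kept and 68.5% of those lost in p42 only were in introns. Within 1 kb of a protein-coding start lay 10.8% of the lost and 11.8% of the kept at equal strength (−0.976 points, −2.05 to 0.0980). The promoter share was 22.1% in regions kept in both but 10.5% at equal strength, so that the difference was −1.97 points (−2.97 to −0.971). Inside a protein-coding gene lay 91.7% of the lost regions (91.1 to 92.3) and 80.2% of all 79246. At equal strength it was 84.8% (83.9 to 85.6) of the kept, 87.5% of those lost in p42 only and 89.4% of those lost in p30 only. Of the 6630 lost regions inside a gene, 6003 (90.5%) lay in a gene whose own start carried a region kept in both. Of the kept regions inside genes it was 87.1%, at their own strength, where a kept region at a start counts itself. These shares use the calls of the rule, so no difference is drawn from them. Between 5 and 20 kb downstream of the nearest protein-coding start lay 25.4% (24.4 to 26.4) of the lost regions and 19.4% of all. Of the kept regions it was 22.7% (21.7 to 23.7) at equal strength.

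H3K4me1 was called at fewer of the lost regions than of the other classes. Within 500 bp of the summit, H3K4me1 of untreated p42-expressing cells was called at 1654 of the 7229 lost regions, or 22.9% (21.9 to 23.9), and at 48.2% of all 79246 regions present in both untreated lists. At equal strength it was called at 41.0% (39.8 to 42.2) of the regions kept in both, 33.9% of those lost in p42 only and 32.8% of those lost in p30 only. The difference from regions kept in both was −18.1 points (−19.6 to −16.6). In p30-expressing cells, H3K4me1 was called at 1887 lost regions, or 26.1% (25.1 to 27.1), and at 54.1% of all 79246. At equal strength it was called at 46.1% (44.8 to 47.3) of the kept, 43.1% of those lost in p42 only and 30.5% of those lost in p30 only. The lost regions thus had the lowest share of the 4 classes in both lines. The difference from regions lost in p42 only was −11.1 points (−12.4 to −9.68) in p42 and −17.0 (−18.5 to −15.6) in p30, and from those lost in p30 only −9.91 (−12.0 to −7.82) and −4.41 (−6.49 to −2.32).

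H3K4me1 in either line was found at 31.5% of the lost regions (30.5 to 32.6) and at 52.6% (51.4 to 53.8) of the kept at equal strength. In both lines it was found at 17.4% and 34.4%, in p42 only at 5.44% and 6.53%, and in p30 only at 8.66% and 11.6%. The comparison was repeated on regions without a kept region within 1000 bp. There 24.4% (23.3 to 25.7) of 5016 lost regions and 46.3% (44.5 to 48.0) of the kept had H3K4me1 in either line, a difference of −21.8 points (−23.9 to −19.7). Among the lost regions alone, the share fell from 39.2% (36.7 to 41.8) in the strongest of 5 classes to 28.2% (26.0 to 30.6) in the weakest. H3K4me1 was not measured with LPS in the files used here.

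CEBPA sites were rare at the lost regions. Of 7229, 308 (4.26%, 3.82 to 4.75) had a site of any of the 4 lists within 500 bp of the summit, 71 (0.982%) of all 4, and 4816 (66.6%, 65.5 to 67.7) had neither a CEBPA site nor H3K4me1. Over all 79246 regions 5.80% had a site of all 4 lists and 36.3% had neither. At equal strength 1.66% of the kept had a site of all 4. Neither was found there at 45.6% of the kept, 51.3% of those lost in p42 only and 56.6% of those lost in p30 only. With the antibody against CEBPA, 191 had a site in p42- and 137 in p30-expressing cells (2.64% and 1.90%), and with anti-ER 149 and 175 (2.06% and 2.42%). Over all 79246 regions these shares were 9.80%, 8.59%, 10.4% and 14.9%, and 17.2% had a site of any list. Regions kept in both had 4.15%, 2.90%, 3.47% and 4.91% in the same order at equal strength, with differences of −1.51 points (−2.08 to −0.946), −1.0 (−1.48 to −0.528), −1.41 (−1.92 to −0.901) and −2.49 (−3.09 to −1.89). Their size depended on how strength was held equal. With classes of the p42 rank alone the differences were −0.464 (−0.939 to 0.0110), −0.579, −0.196 (−0.605 to 0.212) and −1.78, so that both intervals of p42-expressing cells held 0, and with classes of the p30 rank alone they were −6.05, −3.96, −6.53 and −7.09. With untreated peaks at q under 1e-05 the intervals of the antibody against CEBPA held 0 in both lines (−2.70 to 0.428 and −2.03 to 0.708).

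**Figure D3:**
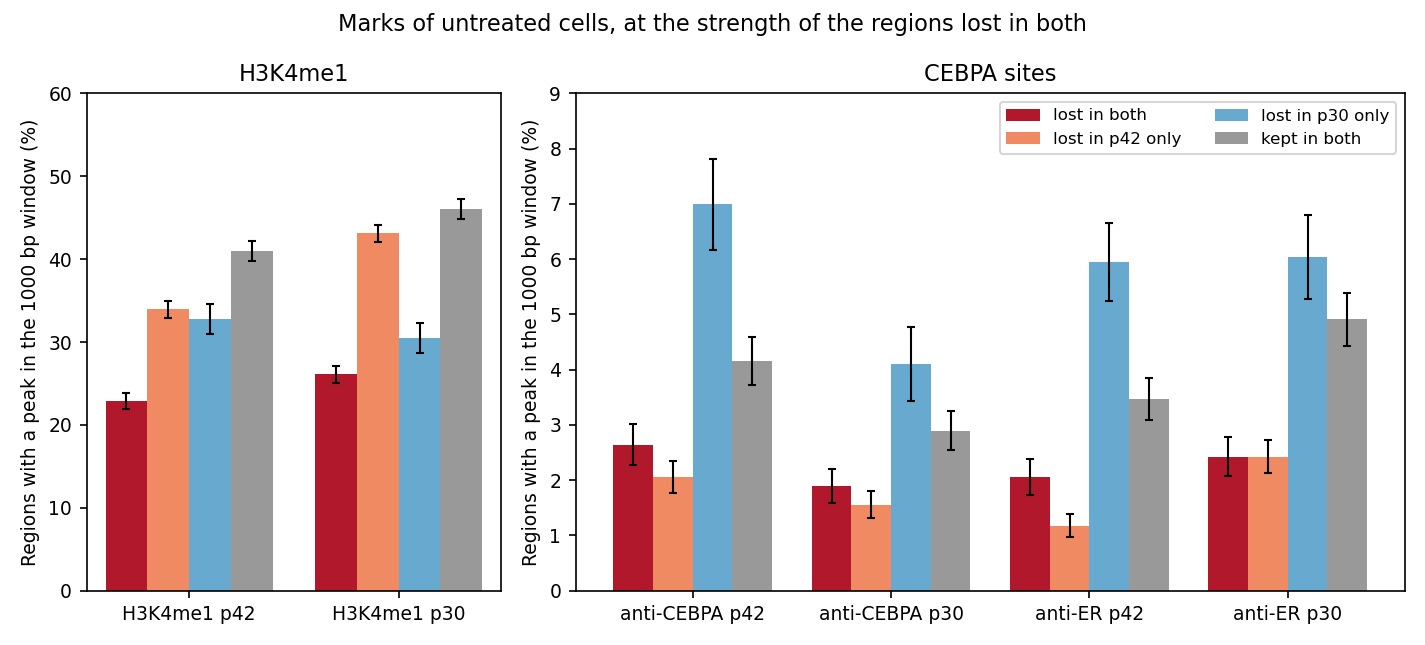
Percent of regions with an H3K4me1 peak (left) or a CEBPA site (right) of untreated cells within 500 bp of the H3K27ac summit (y axis), by list (x axis) and class of region (colours), weighted to the strength of the regions lost in both. Bars are shares and whiskers 95% intervals over regions. The regions lost in both stand at 22.9% and 26.1% for H3K4me1, below the other 3 classes, and regions lost in p30 only have the highest share of CEBPA sites in each list.

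CEBPA sites differed between the kinds of loss at equal mean rank, where the rank in a single line was not matched. Before weighting, the median rank percent in p42 and in p30 was 75.1 and 71.8 for regions lost in both. It was 59.9 and 65.5 for those lost in p30 only, and 65.5 and 55.4 for those lost in p42 only. Classes of the rank of 1 line were not run against the classes lost in 1 line. Regions lost in p30 only, which p42-expressing cells kept, had a site of any list in 9.76% (8.78 to 10.7) at equal strength, and the share of the regions lost in both minus theirs was −5.50 points (−6.57 to −4.42). Regions lost in p42 only had 3.53% (3.16 to 3.90), from which the regions lost in both differed by 0.732 points (0.139 to 1.32). Without regions near a kept region this was 0.257 (−0.480 to 0.993), and in single lists the interval held 0 for both antibodies in p30, so a direction against this class is not given. In 11 lost regions both antibodies gave a site in p42 and neither in p30, and in 4 the reverse. The shares were 0.152% and 0.0553%, with overlapping intervals (0.0850 to 0.272 and 0.0215 to 0.142). Over all 79246 regions they were 0.342% (271 regions) and 0.668% (529 regions). At equal strength the regions kept in both had 0.263% and 0.137%, and the interval of each difference held 0.

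The region 5′ of Dusp7 (chr9:106242075-106242567) was the strongest with sites in all 4 lists. Its fold enrichment was 6.29 in untreated p42- and 6.56 in untreated p30-expressing cells, its ranks were 26745 of 129369 and 24263 of 139210 peaks, and it had H3K4me1 in both lines. No LPS peak overlapped it, but LPS peaks lay 222 bp away in p42 and 234 bp in p30. The Cnot6l region (chr5:96238768-96239211) had fold enrichments of 3.91 and 3.28 and no H3K4me1 in either line, and the nearest LPS peaks were 20463 and 3635 bp away. That in Exoc6b (chr6:84633780-84634336) had 3.77 and 3.28, H3K4me1 in both lines, and LPS peaks at 3439 and 3730 bp.

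The strongest lost region outside promoters was the tandem repeat in Cmas, with ranks of 23333 in p42 and 19171 in p30, a −log10 q of 27.4 and 38.4, but fold enrichments of only 3.08 and 4.06 and a width of 177 bp. In an intron of Kpna3 (chr14:61662001-61662402) the fold enrichments were 5.17 and 4.99, with H3K4me1 in both lines and LPS peaks at 265 and 285 bp. In Dpy19l1 (chr9:24362280-24362971) they were 4.47 and 5.25, and here the nearest LPS peaks were 50315 and 48032 bp away, the largest gap among these 10. Of the rest of the 10 best, values are given for p42 and then p30. They were in an exon of Arid1b, a subunit of the BAF remodelling complex (4.01 and 3.86), and in introns of Nfia, a nuclear factor I protein (4.33 and 4.20), Baz1a, a subunit of ISWI remodellers (4.33 and 4.20), and Ahi1, a ciliary protein (3.14 and 4.64). The others lay in introns of Vps13c, a lipid transfer protein (4.99 and 3.94), and Lrba, a vesicle trafficking protein (4.19 and 4.07). Outside promoters does not mean far from a start. The summits in Cmas, Arid1b and Nfia lay 998, 151 and 904 bp downstream of a protein-coding start, past the end of the promoter window.

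Among lost regions in promoters, the best 10 had fold enrichments of 3.54 to 7.27 in p42 and 3.39 to 7.61 in p30, and included the starts of Wdr43 and Wdr12, which act in ribosome assembly (3.68 and 3.53; 3.55 and 3.39), of Cdc26, a subunit of the anaphase-promoting complex (3.91 and 3.81), and of Rfx2, an RFX factor (4.33 and 3.63). Near each of these an LPS peak lay within 1000 bp in at least 1 line. Other starts in the 10 were those of transcripts near Acot1, Gnaq, Luc7l and Tmem131. The remaining 2, the best-ranked at 7.27 and 6.56 (chr12:115432117-115432676) and 1 at 3.91 and 7.61 (chr12:115410274-115410495), lay in the immunoglobulin heavy chain locus, with Zfp386 as the nearest protein-coding gene. Across this locus (chr12:113218450-115973713; looked at after these regions were seen), 11 of 114 regions present in both untreated lists were lost in both, where regions of the same strength would give 3.26, and 72 were kept in both. Its V segments include near-identical copies, and how reads were placed among them was not tested.

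Motifs were sought in 1000 bp around the summits of the 6613 lost regions outside promoters, on both strands, and the shares below are given beside those over all distal regions present in both untreated lists. The AP-1 motif TGANTCA was in 1650 lost regions, or 24.9% (23.9 to 26.0), against 28.5% of all distal regions and 28.5% of the kept at equal strength, a difference of −3.51 points (−5.07 to −1.94). The NF-kB motif was in 79, or 1.19% (0.960 to 1.49), against 1.78% of all and 2.21% of the kept, a difference of −1.02 points (−1.49 to −0.542). The reversed AP-1 word ACTNAGT, taken as a control, was in 26.1% of the lost, 25.5% of all and 26.0% of the kept. The regions kept in both are by selection those with a peak after LPS, so their NF-kB and AP-1 shares belong to regions acetylated with LPS.

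Of the lineage factors, the PU.1 motif GAGGAAGT was in 7.14% (6.54 to 7.78) of the lost regions, 12.2% of all and 8.81% of the kept at equal strength (difference −1.68 points, −2.62 to −0.731). The pairs of shares that follow are for the lost regions and for the kept at equal strength. The RUNX words TGTGGTTT and TGTGGTCA were in 12.5% and 13.5% (−0.999, −2.18 to 0.187). The GATA word AGATAA was in 41.4% and 41.3%, and the MEIS word TGACAG in 54.2% and 55.9% (−1.67, −3.43 to 0.0948). The CEBP words TTGCGCAA, TTGCACAA and TTGCATAA were in 5.35% and 5.77% (−0.414, −1.22 to 0.395), and the CEBP:ATF4 composite TGATGCAA in 1.92% and 2.62% (−0.701, −1.23 to −0.169). The SP/KLF word GGGCGG was in 12.6% and 15.0% (−2.46, −3.70 to −1.21). Over all distal regions RUNX was in 15.5%, GATA in 41.2%, MEIS in 55.7%, CEBP in 6.41%, CEBP:ATF4 in 2.66% and SP/KLF in 17.6%. For the ETS word CCGGAAGT, the cAMP response element TGACGTCA, the interferon-stimulated response element, both E-boxes and CTCF, the interval of the difference held 0. In these classes of strength 5 of 15 motifs lay below the kept regions with the whole interval and none above. With untreated peaks at q under 1e-05 the interval held 0 for AP-1 (−6.04 to 1.73) and PU.1 (−3.24 to 1.70), with no LPS peak within 1000 bp for PU.1 (−0.112, −1.41 to 1.18), with all peaks at 1e-05 for SP/KLF (−1.05, −2.94 to 0.838) and, in 5 alternatives, for CEBP:ATF4 (−0.0722, −0.757 to 0.612, where presence needed cover). That of NF-kB lay below 0 in each alternative run. With classes of GC content in place of strength, the E-box CAGCTG lay above the kept regions (1.59, 0.332 to 2.84). Against regions lost in p42 only, the lost regions had less PU.1 (−1.54 points, −2.41 to −0.672), RUNX (−1.93, −3.05 to −0.810) and MEIS (−2.28, −3.91 to −0.654) and more CEBP (0.761, 0.0477 to 1.47) and GATA (1.64, 0.0358 to 3.25), and the intervals for AP-1 (−2.40 to 0.457), NF-kB (−0.510 to 0.233) and the other 8 motifs held 0. Against regions lost in p30 only, they had less AP-1 (−3.34, −5.51 to −1.17) and CEBP:ATF4 (−1.0, −1.81 to −0.197), but also less of the reversed control word (−2.32, −4.51 to −0.134), and the intervals of the other 13 motifs held 0. Over all regions, promoters included and without weighting, the median GC content of the 1000 bp was 45.6% in the 7229 lost and 47.8% in the 56651 kept regions.

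**Figure D4:**
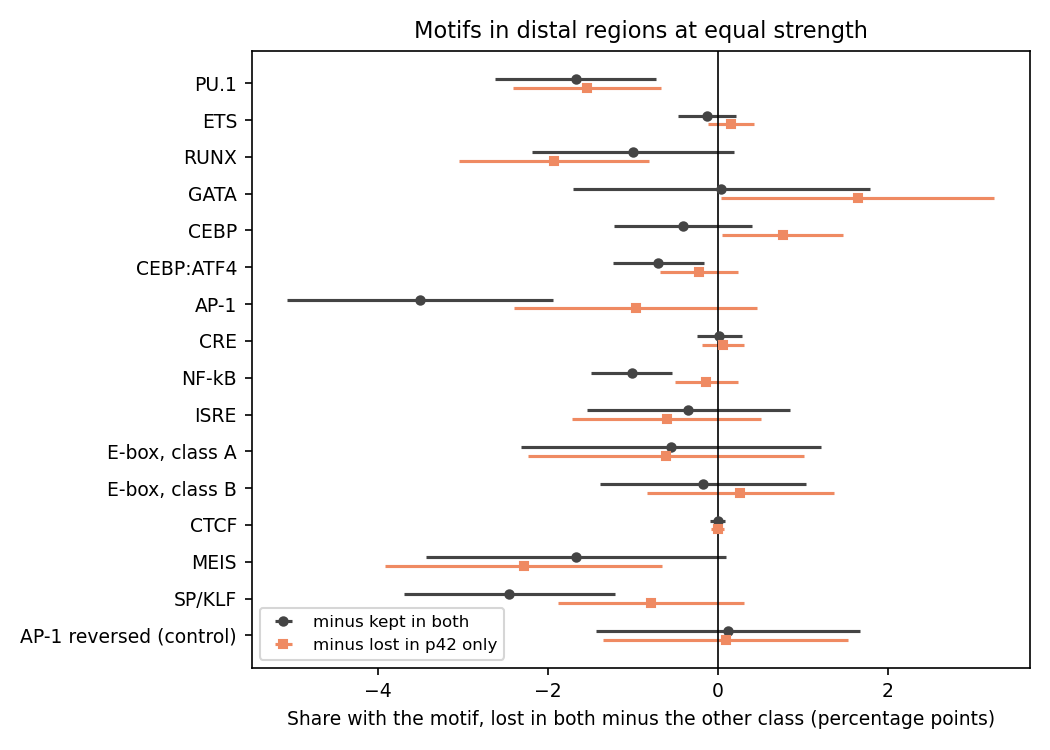
Difference in the percent of distal regions with each motif (x axis, percentage points), regions lost in both minus regions kept in both (circles) or minus regions lost in p42 only (squares), weighted to equal strength; bars are 95% intervals over regions. AP-1 stands at −3.51 against the kept regions, and the reversed control word at 0.12.

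The lost regions were spread over many genes. By the nearest protein-coding start, 3837 of 12898 genes with a region in both untreated lists (29.7%) had at least 1 lost region, 2237 of them exactly 1 and 20 of them 10 or more. Of the 3837 genes, 3695 also had a region kept in both, and in 105 all regions were lost, 100 of which had a single region. The genes with most lost regions were long genes with many regions. Snd1, which encodes a nuclease-domain coactivator, had 20 lost of 73 regions, Ubr4, a ubiquitin ligase, 17 of 46, and Svil, an actin-binding protein, 17 of 72. Mad1l1, of the spindle checkpoint, had 15 of 69, Hdac4, a class IIa deacetylase, 14 of 57, Dock8, a guanine exchange factor of leukocytes, 13 of 79, and Cux1, a homeodomain factor, 13 of 96. Prim2, a primase subunit, had 12 of 45, Clasp1, a microtubule protein, 12 of 77, and Agap1, an Arf GTPase activator, 12 of 82. Regions of equal strength would give 10.8 for Snd1, 8.81 for Ubr4, 9.44 for Svil, 9.36 for Mad1l1 and 7.11 for Hdac4. They would give 11.3 for Dock8, 11.0 for Cux1, 6.08 for Prim2, 10.0 for Clasp1 and 10.4 for Agap1.

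Among the 3094 genes with at least 8 regions, the highest shares lost were at Ash1l, an H3K36 methyltransferase (6 of 9, 1 kept in both), Barhl1, a homeobox gene (5 of 8), Ammecr1l (6 of 10), Mdn1, an ATPase of ribosome assembly (9 of 16), Ctps1, a CTP synthase (5 of 9), and Fbxl20, an F-box protein (5 of 9). These were the highest of many and are given as a description. None of the lost regions nearest to Barhl1 lay inside it, and 1 lay inside Ammecr1l.

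In 14 lists of genes of progenitor identity, signalling and inflammation, the share lost in both was below that of all regions of the same strength in each list, and in 3 lists with its whole interval. These shares use the calls of the rule and are a description. The intervals take regions as independent, which regions near the same gene are not, so they can be too narrow. The 288 regions of the myeloid list, for example, lay near 19 genes, with 65 at Zeb2. With untreated peaks at q under 1e-05 it was below in 8 lists, and the lists with the whole interval below numbered 0 there and with gaps merged, and 1 with all peaks at that q or no LPS peak within 1000 bp. Over all genes 9.12% of regions were lost in both (8.92 to 9.32). Near the 20 listed myeloid transcription factors it was 5 of 288, or 1.74% (0.744 to 4.00), where regions of the same strength gave 4.74%, and 249 were kept in both. The 5 lay at Zeb2 (2 of 65), Nr4a1 (1 of 11), Irf8 (1 of 15) and Klf6 (1 of 29). Near NF-kB and Toll-like signalling genes it was 7 of 220, or 3.18% (1.55 to 6.42), against 6.51%, with 2 of 40 at Tab2, an adaptor of TAK1, and 1 each at Nfkbib, an inhibitor of NF-kB, Traf6, a ubiquitin ligase, and Tnip1, an inhibitor of the pathway. Near lymphoid genes it was 0 of 92, which allows up to 4.01%, against 4.80%. In these 3 lists the interval lay below the share at equal strength.

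Near inflammatory cytokines and chemokines 3 of 103 regions were lost (2.91%, 0.995 to 8.22; 6.11% at equal strength), 1 each at Csf3 and Csf1, which encode growth factors of granulocytes and macrophages, and Il15. Near AP-1 and immediate early genes 4 of 185 were lost (2.16%, 0.844 to 5.43; 3.95%), with 2 of 22 at Jun, 1 of 14 at Fos and 1 of 9 at Egr2. Near stem and progenitor factors 16 of 378 were lost (4.23%, 2.62 to 6.76; 5.98%), with 5 of 95 at Runx1, 3 of 65 at Ikzf2, 2 of 35 at Meis1 and 2 of 26 at Fli1. Of the 22 genes of this list, which mark the progenitor identity of the line, 17 had a region in both untreated lists and 315 of the 378 regions were kept in both. Erythroid and megakaryocyte genes had 1 of 80 lost (1.25%, at Gp5; 6.41%), mast cell and basophil genes 4 of 79 (5.06%; 5.95%), and neutrophil granule genes 3 of 59 (5.08%; 6.58%).

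Growth factor receptors had 20 of 367 regions lost (5.45%, 3.56 to 8.27; 7.30% at equal strength), 10 of 72 at Igf1r and 6 of 32 at Ifngr1, the interferon gamma receptor, where equal strength gave 1.78. Their feedback inhibitors had 16 of 251 (6.37%; 8.64%), with 4 of 25 at Spred2 and 3 of 26 at Cbl. Cell cycle genes and Myc had 12 of 259 (4.63%; 6.65%), with 4 of 47 at Myc and 3 of 12 at Rb1. Interferon response genes had 13 of 155 (8.39%, 4.97 to 13.8; 8.86%), 6 of 57 at Irf2. Chromatin regulators of acetylation had 34 of 323 (10.5%, 7.63 to 14.3; 10.7%). Beside Hdac4, these included regions at Crebbp and Ep300, the acetyltransferases that write H3K27ac (4 of 22 and 3 of 15). For these lists and those of the preceding paragraph the interval held the share at equal strength.

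**Figure D5:**
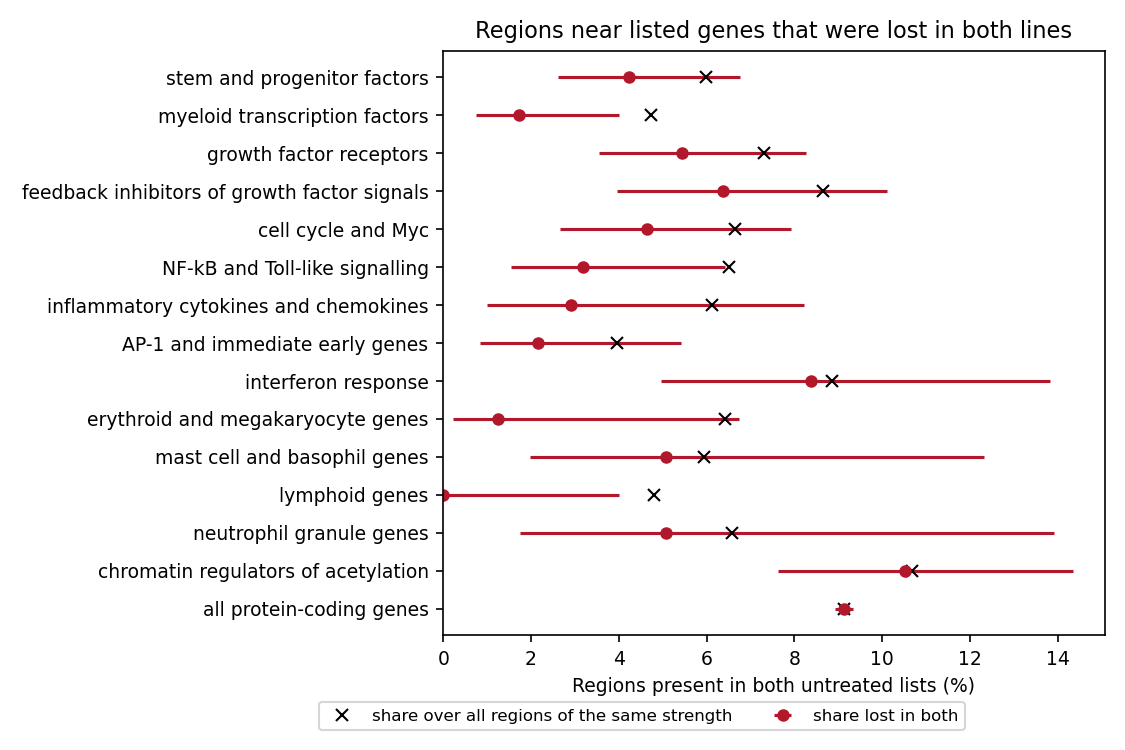
Percent of the regions present in both untreated lists nearest to genes of each list (y axis) that were lost in both lines (x axis; circles, with 95% Wilson intervals), and the percent over all regions of the same strength (crosses). The circles lie at or left of the crosses in each of the 14 lists. The interval, which takes regions as independent, excludes the cross for myeloid transcription factors, NF-kB and Toll-like signalling and lymphoid genes.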

How the data were processed

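Peak lists of mouse HPC-7 cells were used: H3K27ac in 4 groups, H3K4me1 in 2, anti-CEBPA in 2 and anti-ER in 2. According to the methods, the authors trimmed reads (Trim Galore 0.6.6 in the submitters' processing notes), aligned them with Bowtie2 to mm39, removed duplicates with Picard and called narrow peaks with MACS2 against input at q 0.05. Sodium butyrate, a deacetylase inhibitor, was in the H3K27ac ChIP buffers. Histone mark lists were called on pooled replicates. The deposited files give fold enrichment over local background, a ratio, and −log10 q at each summit. These values were used only within their own list, since they move with depth.

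Chromosomes 1 to 19, X and Y were kept. Summits were annotated with GENCODE vM39. Shares of other classes were weighted over 20 strength classes; intervals are Wilson or 1.96 standard errors. The value for regions of equal strength near genes or in a locus comes from the share lost over all regions in 20 classes. The members, lists and motifs were chosen with earlier results of these data known. Named regions were the 10 best distal and promoter regions, the 3 best distal ones with 4 or no CEBPA lists, the 10 genes with most lost regions, the 6 with the highest share, and up to 4 per gene list. Best was judged by the worse of the rank percents in the untreated lists, not by the mean used as strength, and the order can differ. Alternatives were stricter q-values, equal list lengths, other merging, distances, windows and classes. Steps were tested on simulated data. The ATF4 list of KO-52 cells was not used, and 2 genes named by these rules are not reported here. Computation used Python 3.11.15, numpy 2.4.6, pandas 2.3.3 and matplotlib 3.10.9.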

Additional observations from a re-analysis of the deposited data

How the results depend on the processing

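No paired analysis was possible because each list pools its replicates or holds 1 library; leaving out a replicate was not possible for the same reason. Of 283 values recomputed, 178 stayed within the interval of the reported value (counts within 1.5 times) and 105 moved. All 222 differences kept their sign and 207 their whole interval on that side, as did all 45 of H3K4me1. These differences are a selected set. Of the 15 motifs they hold only the 5 whose reported interval lay below 0. They also hold the loss in p30 by loss in p42, which uses the calls of the rule. Their count of signs is therefore a description.

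The number of lost regions was 606 with untreated peaks at q under 1e-05, 3161 with all peaks at that q, 4655 with equal list lengths, 2930 with no LPS peak within 1000 bp and 4339 with gaps up to 500 bp merged; merging touching peaks, an alternative added after seeing the data, gave 7225. Their median rank percent was 70.3 with untreated peaks at q under 0.01, 46.2 at 1e-05, 44.5 with all peaks at 1e-05, 74.3 with equal lists, 73.3 with no LPS peak within 1000 bp, 73.5 with gaps merged, 65.5 where presence needed cover of 50% of the region and 71.6 with ranks by fold. The percent within 1000 bp of an LPS peak was 64.5, 44.3, 54.9, 28.1 and 77.6 with untreated peaks at 1e-05, all peaks at 1e-05, equal lists, gaps merged and cover. The difference in loss in p30 by loss in p42 was 13.3 points with untreated peaks at 1e-05, 15.6 with cover, 21.4 with ranks by fold, 22.4 and 23.1 with classes of the p42 or p30 rank, 31.9 without classes and 1.80 without regions near LPS peaks, where regions lost in both were taken out by construction.

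For H3K4me1 in either line, the difference from kept regions was −17.3 points with untreated peaks at 1e-05, −28.8 with no LPS peak within 1000 bp, −23.5 with ranks by fold, −24.9 over whole regions, −25.7 and −25.0 with classes of the p42 or p30 rank and −34.5 without classes. For any CEBPA site it was −3.86 with all peaks at 1e-05, −3.54 with equal lists, −3.61 with gaps merged, −3.76 with cover, −3.38 with ranks by fold, −3.58 over whole regions, −1.43 and −8.54 with classes of the p42 or p30 rank and −17.5 without classes. The promoter difference was −13.6 without classes. Motifs below the kept regions numbered 3 with untreated peaks at 1e-05, 11 without classes and 12 with GC classes in place of rank. Gene lists below equal strength, of 14 as reported, numbered 8 with untreated peaks at 1e-05 and 12 to 14 otherwise. Those with the whole interval below numbered 0 with untreated peaks at 1e-05 or gaps merged, and 1 with all peaks at 1e-05 or no LPS peak within 1000 bp. Fewer regions were tested in these; other causes were not tested. Depth of the libraries is unknown, and at 4.26% of 7229 regions CEBPA differences rest on few sites.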

Other observations

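Loss in both lines was less frequent on the X chromosome. Of 1007 X regions present in both untreated lists, 28 were lost in both (2.78%, 1.93 to 3.99), where regions of the same strength gave 4.41%. On the autosomes the share ran from 6.79% on chromosome 17 (326 of 4798, 6.12 to 7.54; 7.95% at equal strength) to 11.5% on chromosome 18 (260 of 2254, 10.3 to 12.9; 10.2%). Chromosomes were looked at after the other results, and regions of a chromosome are not independent.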
